A study of Homo sapiens with 18 samples.

Results

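The genes described here encode the cytosolic chaperone HSP90, the co-chaperones that work with it, and heat shock factors, the transcription factors tied to it. They were HSP90AA1, HSP90AB1, AHSA1, STIP1, CHORDC1, FKBP4, PTGES3, CDC37, HSF1 and HSF2. Array features, called transcript clusters, were taken where every gene symbol in the probe annotation was among these 10 names. This gave 8 of the 33297 clusters in the table, with 1 cluster for each of 8 genes. No cluster carried the symbol AHSA1 or HSF2 in that annotation, so these 2 genes are not analysed here. The cells were HEK293, a human embryonic kidney line, transfected transiently with a lipid reagent. They received a RHOXF1 expression vector, a RHOXF2 expression vector or an empty control vector, which the treatment text lists as pCMV6-AC-GFP, and RNA was taken 24 h or 48 h later. RHOXF1 and RHOXF2 are homeobox genes of the reproductive family on the X chromosome. The groups were RHOXF1 at 24 h, RHOXF2 at 24 h, control at 24 h, RHOXF1 at 48 h, RHOXF2 at 48 h and control at 48 h, with 3 arrays in each and 18 in all. Every group, control included, had been exposed to plasmid and transfection reagent, and no untransfected cells were among the samples. The RNA was bulk, so a change in few strongly responding cells and a small change in all cells cannot be told apart.

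HSP90 is an ATP-driven dimer that binds proteins late in their folding, among them steroid receptors and many kinases. HSP90AA1 encodes the stress-inducible alpha form and HSP90AB1 the more constitutive beta form. Co-chaperones set the pace of its cycle: STIP1 (HOP) hands clients over from HSP70, CDC37 brings kinases, PTGES3 (p23) stabilises the closed state, FKBP4 is an immunophilin found in steroid receptor complexes, CHORDC1 (morgana) is a CHORD-domain partner, and AHSA1 speeds ATP hydrolysis. HSF1 is the main activator of heat shock genes and is held in check by HSP90 and HSP70 in unstressed cells. HSF2 is a second factor of the same family.

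Heat shock factors bind the heat shock element, in which the units GAA and TTC alternate with 2 bases between them, and the promoter sequences are shown because these genes are often described as heat shock targets. RefSeq promoter windows on GRCh38.p14, each running from 250 bases before to 50 after an annotated start, were examined for 8 of the 10 genes. They made 14 windows in all. None was at hand for FKBP4, and HSF1 was left out. The motifs searched were GAANNTTC and TTCNNGAA, each its own reverse complement, and the longer GAANNTTCNNGAA, searched on both strands and holding 1 copy of each shorter motif. At least 1 motif was found for HSP90AA1, HSP90AB1, STIP1 and CHORDC1, and in none of the windows of PTGES3, CDC37, AHSA1 and HSF2. Of all 35116 promoter windows, 6.77% held GAANNTTC, 7.74% held TTCNNGAA, 0.49% held the longer motif and 13.5% held any of them. Counted by gene, 16.2% of 27305 genes held any motif and 0.608% the longer one, beside 4 and 3 of these 8 genes. In the windows below, written 5′ to 3′ on the strand of the gene, capitals mark every base inside a match. The HSP90AA1 window is chr14:102086995-102087294 (minus strand), that of HSP90AB1 chr6:44247693-44247992 (plus strand), that of STIP1 chr11:64185921-64186220 (plus strand) and that of CHORDC1 chr11:90223000-90223299 (minus strand).
HSP90AA1: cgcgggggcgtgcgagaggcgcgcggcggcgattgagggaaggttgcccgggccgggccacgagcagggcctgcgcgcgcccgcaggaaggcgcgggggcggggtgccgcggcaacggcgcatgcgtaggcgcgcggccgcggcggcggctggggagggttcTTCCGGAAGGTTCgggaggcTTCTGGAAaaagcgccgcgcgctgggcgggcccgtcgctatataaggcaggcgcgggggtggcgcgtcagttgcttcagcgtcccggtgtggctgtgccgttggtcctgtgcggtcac
HSP90AB1: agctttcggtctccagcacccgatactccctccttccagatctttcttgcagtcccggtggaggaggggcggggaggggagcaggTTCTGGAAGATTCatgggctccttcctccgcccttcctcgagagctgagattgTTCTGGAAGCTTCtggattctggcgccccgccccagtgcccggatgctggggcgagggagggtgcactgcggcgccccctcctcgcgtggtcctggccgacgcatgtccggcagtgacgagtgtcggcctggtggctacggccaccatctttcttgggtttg
STIP1: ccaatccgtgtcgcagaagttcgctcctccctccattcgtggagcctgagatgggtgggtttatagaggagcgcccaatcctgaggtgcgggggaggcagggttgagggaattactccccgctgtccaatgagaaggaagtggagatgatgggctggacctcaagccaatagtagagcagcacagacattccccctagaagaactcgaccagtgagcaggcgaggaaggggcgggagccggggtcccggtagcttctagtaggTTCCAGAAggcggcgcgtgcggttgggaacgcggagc
CHORDC1: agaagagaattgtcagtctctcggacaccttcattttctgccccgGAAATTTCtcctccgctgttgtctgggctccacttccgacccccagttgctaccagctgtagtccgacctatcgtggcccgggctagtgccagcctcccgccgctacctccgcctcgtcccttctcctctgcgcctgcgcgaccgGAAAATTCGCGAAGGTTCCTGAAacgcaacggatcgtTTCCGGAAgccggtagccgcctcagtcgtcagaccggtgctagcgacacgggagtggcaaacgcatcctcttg
The CHORDC1 window held 5 units in a row between bases -60 and -38 from the start, with 2 further pairs of units. HSP90AA1 had 3 units in a row between -88 and -76 and a pair between -68 and -61. Both lay in the window of the second of its 2 annotated starts, and the window of the first held none. HSP90AB1 had 2 runs of 3 units, at -165 to -153 and at -112 to -100, in the window of the third of its 3 annotated starts and not in the windows of the other two. STIP1 had a single pair of units just after the second of its 2 annotated starts, at bases 14 to 21. The window of its first start held none. A match describes these letters only and shows no binding.

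**Figure D1:**
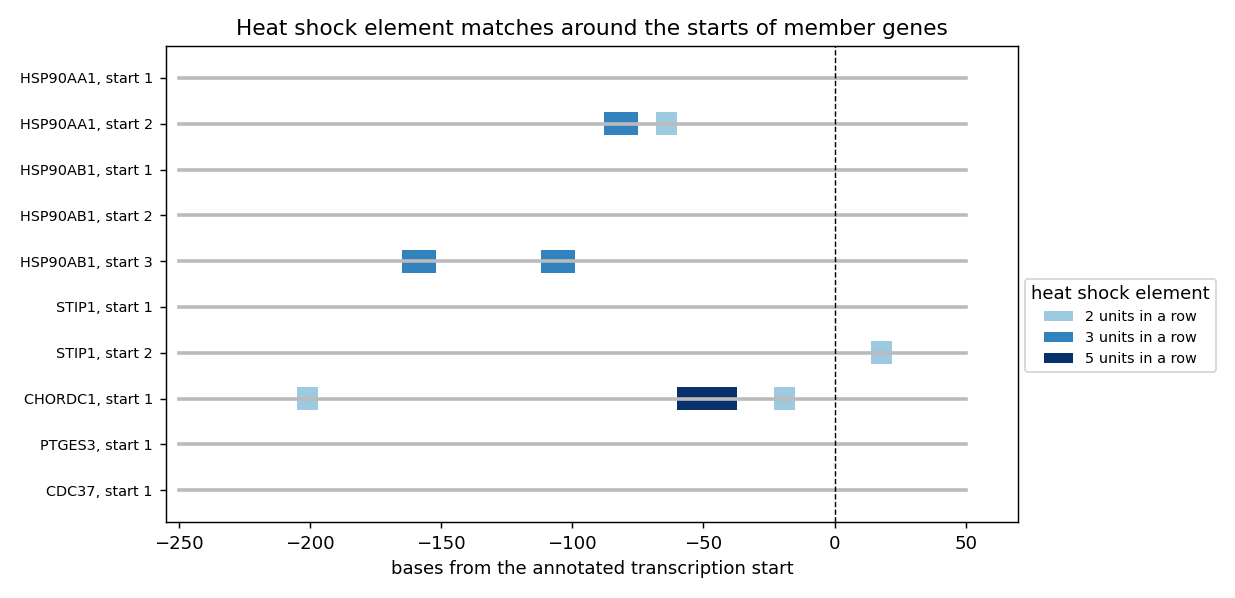
Heat shock element matches in the promoter windows of the 6 member genes with both an examined window and a cluster on the array. The x axis gives bases from each annotated start (dashed line), grey lines are the windows and coloured blocks the matches, shaded by the number of units in a row: CHORDC1 has the longest run, 5 units, and PTGES3 and CDC37 have none.

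The transfected genes were high in the arrays that name them. RHOXF1 averaged 12.25 and 12.27 in RHOXF1 cells at 24 h and 48 h, against 6.34 and 6.13 in control cells. The probe annotation pairs RHOXF2 with its near-identical copy RHOXF2B on 2 clusters of equal values, which averaged 12.83 and 12.92 in RHOXF2 cells, against 6.81 and 6.62 in control cells. The RHOXF1 cluster also read higher in RHOXF2 cells than in control cells, at 7.48 and 7.97 on average and 9.12 on the highest array. Values are log2 RMA expression values throughout, and they compare arrays for 1 cluster, not genes with each other. Of 9 markers fixed for HEK293, the neurofilament genes NEFM and NEFL lay at percentiles 98.6 to 99.4 of each array, and PAX2 lay near the array median. Of 11 measured markers of other cells, PTPRC (blood, at or below percentile 10.6) was the dimmest, while the collagen genes COL1A1 (61.2 to 66.7) and COL3A1 (50.6 to 56.2) and the liver gene APOA1 (49 to 55.1) read as high as or higher than PAX2 (44.9 to 50.9). The mean of the 11 markers ran from 5.54 to 5.86 over all arrays. The first principal component, with 34.1% of the variance, set the 24 h arrays (-17.2 to -8.7) apart from the 48 h arrays (9.4 to 26.3), except RHOXF2 replicate 3 at 48 h, which lay at -4.5. The array numbers of the 24 h samples all precede those of the 48 h samples, so any difference in handling between these sets cannot be told apart from time. The labels call the arrays of a group biological triplicates without saying whether wells, passages or days differed, so p-values measure the spread between these arrays, which may in part be technical.

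None of the 8 genes differed from control past the threshold in RHOXF1 or RHOXF2 cells at either time. STIP1 and HSP90AA1 in RHOXF2 cells at 48 h came nearest, reading 1.31-fold and 1.17-fold higher than control at an adjusted p of 0.201 and 0.268. Between the control groups, STIP1, CHORDC1 and HSP90AA1 were lower at 48 h than at 24 h, and CHORDC1 was also lower at 48 h in RHOXF1 cells. HSP90AB1, FKBP4, PTGES3, CDC37 and HSF1 passed the threshold in no comparison. Differences were tested with limma over 21214 clusters that carry a symbol, with Benjamini-Hochberg adjustment at 0.05.

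**Figure D2:**
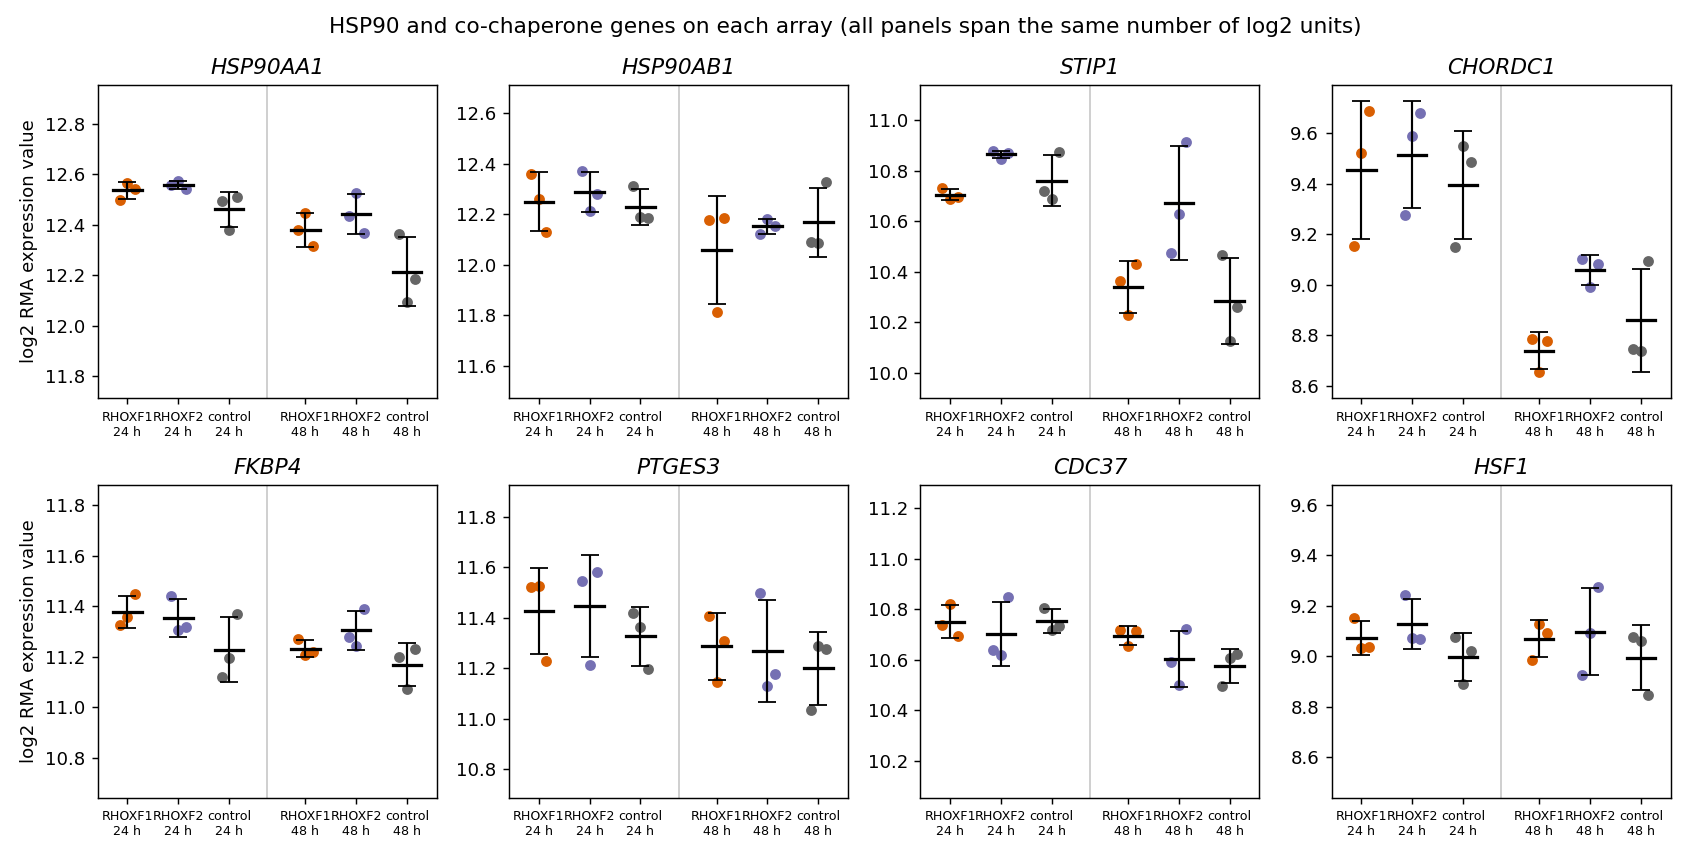
Log2 RMA expression values of the 8 member genes (y axis, a panel for each gene) on each of the 18 arrays (points), with the mean and SD of each group of 3 (bars). STIP1, CHORDC1 and HSP90AA1 lie lower in control cells at 48 h than at 24 h, while HSF1 and HSP90AB1 overlap between these groups.

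HSP90AA1 was bright on every array, at percentiles 97.8 to 98.7 of all clusters. At 48 h it read 12.38, 12.45 and 12.31 in RHOXF1 cells and 12.43, 12.53 and 12.37 in RHOXF2 cells, against 12.36, 12.10 and 12.19 in control cells. All RHOXF2 arrays were above all control arrays, the lowest RHOXF2 array by less than 0.01, and the RHOXF1 arrays overlapped the control range. The difference from control was 0.23 for RHOXF2 (SE 0.08, 95% interval 0.06 to 0.39, adjusted p = 0.268) and 0.17 for RHOXF1 (SE 0.08, 0.0013 to 0.33, adjusted p = 0.689). Without RHOXF2 replicate 3, the array that stood apart in the principal component, the RHOXF2 difference was 0.27 (adjusted p = 0.868, and 0.0769 to 0.868 over the alternatives run). At 24 h HSP90AA1 read 12.50, 12.57 and 12.54 in RHOXF1 cells and 12.56, 12.57 and 12.54 in RHOXF2 cells, against 12.49, 12.38 and 12.51 in control cells. The RHOXF2 arrays were again all above the control arrays and the RHOXF1 arrays overlapped them, with differences of 0.07 (interval -0.09 to 0.24) for RHOXF1 and 0.10 (-0.07 to 0.26) for RHOXF2.

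HSP90AB1, the beta form, followed this order of group means at 24 h and not at 48 h. At 48 h it read 12.18, 11.81 and 12.19 in RHOXF1 cells and 12.12, 12.18 and 12.15 in RHOXF2 cells, against 12.09, 12.09 and 12.33 in control cells. The RHOXF1 group holds the lowest array of all 18, its replicate 2, and the groups overlap. The difference from control was -0.02 for RHOXF2 (SE 0.10, interval -0.23 to 0.20) and -0.11 for RHOXF1 (SE 0.10, -0.32 to 0.10). At 24 h the values were 12.36, 12.26 and 12.13 in RHOXF1 cells and 12.37, 12.21 and 12.28 in RHOXF2 cells, against 12.31, 12.19 and 12.18 in control cells, also overlapping. The 24 h means were 12.29 in RHOXF2 cells, 12.25 in RHOXF1 cells and 12.23 in control cells.

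STIP1, the adaptor between HSP70 and HSP90, had the largest difference from control among the 8 genes. At 48 h it read 10.37, 10.23 and 10.43 in RHOXF1 cells and 10.47, 10.63 and 10.92 in RHOXF2 cells, against 10.47, 10.12 and 10.26 in control cells. The RHOXF2 arrays lay above the control arrays by a margin of under 0.01 at the nearest, and spread widely, with replicate 3 highest. The difference between RHOXF2 and control was 0.39 (SE 0.10, interval 0.17 to 0.61, adjusted p = 0.201), at percentile 98.9 of the differences of all tested clusters. Without RHOXF2 replicate 3 it was 0.27 (adjusted p = 0.899, and 0.0521 to 0.899 over the alternatives run). RHOXF1 differed from control by 0.06 (interval -0.16 to 0.28). At 24 h STIP1 read 10.73, 10.69 and 10.70 in RHOXF1 cells and 10.88, 10.85 and 10.87 in RHOXF2 cells, against 10.72, 10.69 and 10.88 in control cells. Control replicate 3 was as high as the tight RHOXF2 group, and the difference from control was 0.10 (interval -0.11 to 0.32) for RHOXF2 and -0.06 (-0.27 to 0.16) for RHOXF1.

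CHORDC1 had the widest range of the 8 genes, 1.03 log2 units over all arrays. At 48 h it read 8.78, 8.65 and 8.78 in RHOXF1 cells and 9.10, 8.99 and 9.08 in RHOXF2 cells, against 8.74, 8.74 and 9.10 in control cells. Control replicate 3 was as high as the RHOXF2 arrays, so both comparisons overlap, with differences of 0.20 (SE 0.14, interval -0.09 to 0.49) for RHOXF2 and -0.12 (SE 0.14, -0.41 to 0.17) for RHOXF1. Without control replicate 3 these differences were 0.32 and -0.0017. At 24 h it read 9.15, 9.52 and 9.69 in RHOXF1 cells and 9.28, 9.59 and 9.68 in RHOXF2 cells, against 9.15, 9.55 and 9.49 in control cells. Replicate 1 was the lowest array in each of these 3 groups. The differences from control at 24 h were 0.06 (interval -0.23 to 0.35) for RHOXF1 and 0.12 (-0.17 to 0.41) for RHOXF2. These intervals come from a fit that does not pair arrays by replicate number. With a replicate block in limma the adjusted p was 0.935 for RHOXF1 and 0.709 for RHOXF2. The RHOXF1 difference was -0.06 without control replicate 1 or without RHOXF1 replicate 3.

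FKBP4, the steroid receptor immunophilin, passed no test. At 48 h it read 11.27, 11.21 and 11.22 in RHOXF1 cells and 11.28, 11.24 and 11.39 in RHOXF2 cells, against 11.20, 11.07 and 11.23 in control cells. Each RHOXF2 array was above each control array, and the difference was 0.14 (SE 0.08, interval -0.03 to 0.30, adjusted p = 0.520), or 0.09 without RHOXF2 replicate 3. At 24 h it averaged 11.38 ± 0.06 in RHOXF1 cells and 11.35 ± 0.08 in RHOXF2 cells, against 11.23 ± 0.13 in control cells (SD, n = 3), with overlapping arrays. The 24 h differences were 0.15 (interval -0.02 to 0.32, adjusted p = 0.961) for RHOXF1, the largest of the 8 genes in that comparison, and 0.13 (-0.04 to 0.29, adjusted p = 0.755) for RHOXF2.

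PTGES3 and CDC37 were not called against control. PTGES3 averaged 11.29 ± 0.13 in RHOXF1 cells and 11.27 ± 0.20 in RHOXF2 cells at 48 h, against 11.20 ± 0.14 in control cells. Its differences from control in the 4 comparisons ran from 0.07 to 0.12, and every interval held 0. CDC37, the kinase co-chaperone, averaged 10.70 ± 0.04 in RHOXF1 cells and 10.61 ± 0.11 in RHOXF2 cells at 48 h, against 10.58 ± 0.07 in control cells. The RHOXF1 arrays (10.72, 10.65 and 10.72) were all above the control arrays (10.50, 10.61 and 10.62), with a difference of 0.12 (SE 0.08, interval -0.05 to 0.29, adjusted p = 0.781). At 24 h the CDC37 differences were -0.0016 for RHOXF1 and -0.05 for RHOXF2.

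HSF1, the transcription factor itself, passed no test. At 48 h HSF1 read 8.99, 9.13 and 9.09 in RHOXF1 cells and 8.93, 9.09 and 9.27 in RHOXF2 cells, against 9.08, 9.06 and 8.85 in control cells. At 24 h it read 9.15, 9.03 and 9.04 in RHOXF1 cells and 9.24, 9.07 and 9.07 in RHOXF2 cells, against 9.08, 8.89 and 9.02 in control cells. The groups overlapped in each comparison made. The differences from control ran from 0.08 to 0.13 in the 4 comparisons, and the widest interval bound was 0.33. Leaving out 1 array at a time moved them between 0.00055 and 0.12 for RHOXF1 at 48 h and between 0.015 and 0.19 for RHOXF2 at 48 h. HSF1 activity is set mainly on the protein, which an RNA array does not measure.

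**Figure D3:**
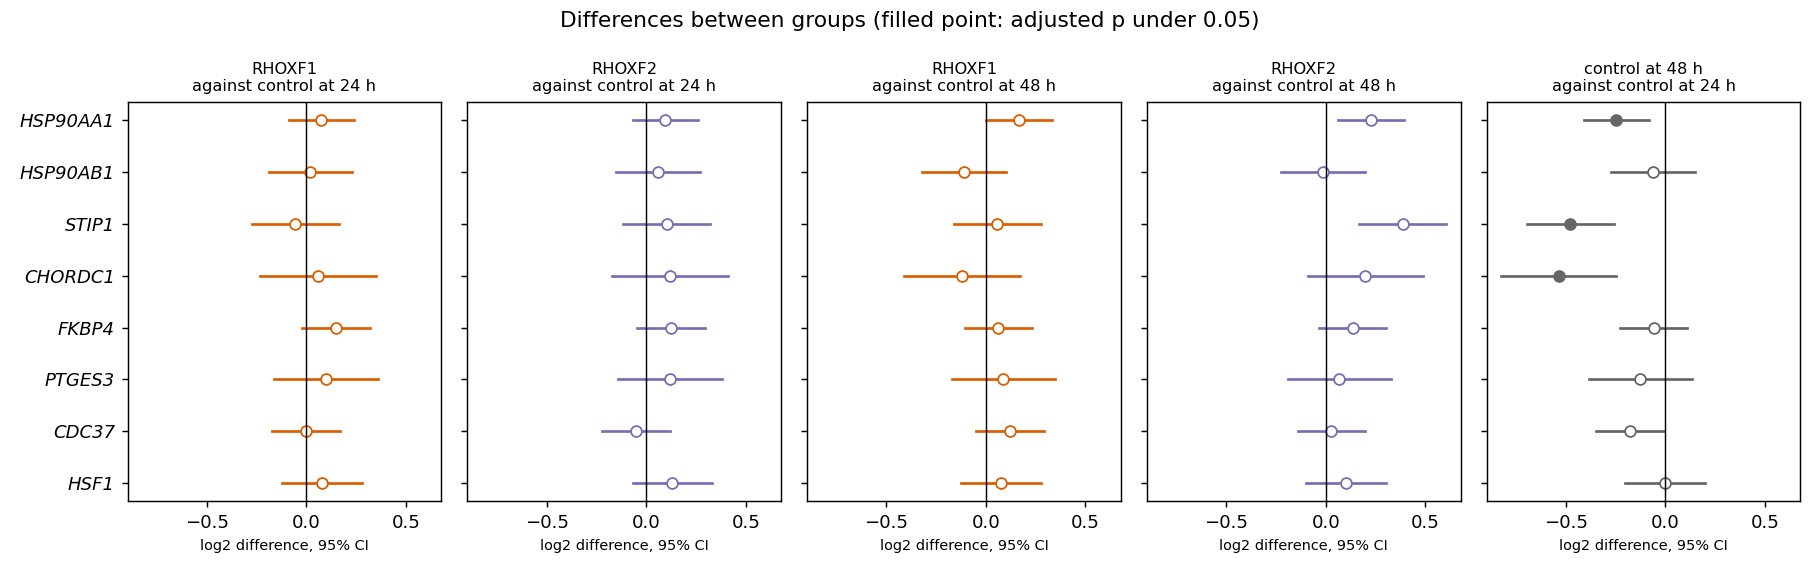
Log2 difference of each member gene with its 95% interval (x axis) in the 4 comparisons with control and between the control groups at 48 h and 24 h. Filled points passed an adjusted p of 0.05: none did against control, and STIP1, CHORDC1 and HSP90AA1 did between the control groups, all lower at 48 h.

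Counted over the members, no comparison with control held a call. In RHOXF1 cells at 24 h 6 of 8 genes read higher (median 0.07, against 0.0004 over all tested clusters). Limma called 0 of 8, beside 0.00471% of all clusters, with 0 under an unadjusted p of 0.05 against 4.76%. The only cluster called was that of RHOXF1, the transfected gene. In RHOXF2 cells at 24 h 7 of 8 read higher (median 0.11, all clusters -0.003). Limma called 0 of 8 against 0.00943% of all clusters, with 0 under an unadjusted p of 0.05 against 7.99%. The clusters called were those of RHOXF2, the transfected gene. Only 1 of the 8, HSP90AA1, lay wholly above control, where 3.89% of all clusters did.

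In RHOXF1 cells at 48 h 6 of 8 genes read higher (median 0.07, all clusters 0.008). Limma called 0 of 8 against 0.00943% of all clusters, and 1, HSP90AA1, had an unadjusted p under 0.05 where 7.22% of all clusters did. CDC37 was the 1 gene wholly above control, where 7.17% of all clusters were. In RHOXF2 cells at 48 h 7 of 8 read higher (median 0.12, all clusters 0.01). Limma called 0 of 8 against 0.0943% of all clusters, and 2, STIP1 and HSP90AA1, had an unadjusted p under 0.05 where 12.2% of all clusters did. The 3 genes wholly above control were STIP1, FKBP4 and HSP90AA1, where 6.59% of all clusters were. The RHOXF1 and RHOXF2 comparisons of a time share their control arrays, so they do not count as separate support for each other. The same control arrays also enter the comparison between the control groups, which is not separate from these either.

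Between the times, all 8 genes read lower in control cells at 48 h than at 24 h (median -0.15, against -0.03 over all tested clusters). Of these, 3 fell past the threshold, where 7.89% of all clusters fell and 17.8% moved either way. STIP1 fell to 10.28 ± 0.17 in control cells at 48 h, against 10.76 ± 0.10 at 24 h (log2 difference -0.48, SE 0.10, adjusted p = 0.00522). CHORDC1 fell to 8.86 ± 0.20 at 48 h, against 9.40 ± 0.21 at 24 h (-0.54, SE 0.14, adjusted p = 0.0135). HSP90AA1 fell to 12.22 ± 0.14 at 48 h, against 12.46 ± 0.07 at 24 h (-0.25, SE 0.08, adjusted p = 0.0371). For these 3 genes and CDC37 (-0.18, adjusted p = 0.133) every 48 h array lay below every 24 h array, as did 15.7% of all clusters, and these 4 also had an unadjusted p under 0.05, as did 33.5%. HSF1 differed by -0.0014 (interval -0.20 to 0.20) and HSP90AB1 by -0.06 (-0.27 to 0.15).

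The HSP90AA1 call between the control groups was close to the threshold. Leaving out control replicate 1 or 3 of 24 h put its adjusted p at 0.0920 and 0.0913, and leaving out control replicate 2 or 3 of 48 h put it at 0.146 and 0.104. It also missed the threshold under cyclic loess (0.0643), with unnamed clusters added to the test (0.0536) and in a fit of the 2 control groups alone (0.169). The CHORDC1 call ended when control replicate 2 of either time was left out, with an adjusted p of 0.0649 for 24 h and 0.0563 for 48 h. Without control replicate 2 of 48 h, 1 of the 8 genes, STIP1, was called. The adjusted p of STIP1 ran from 0.00220 to 0.0306 over the alternatives run.

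In the transfected groups the same 8 genes also read lower at 48 h, in a comparison added after the values were seen. CHORDC1 fell in RHOXF1 cells to 8.74 ± 0.07 at 48 h, against 9.45 ± 0.27 at 24 h (-0.72, SE 0.14, adjusted p = 0.0108), the 1 gene of 8 called where 1.35% of all clusters fell and 4.42% moved either way. That call was lost without RHOXF1 replicate 2 or 3 of 24 h or replicate 3 of 48 h (adjusted p = 0.0505 to 0.0681). STIP1 differed there by -0.36 (SE 0.10, adjusted p = 0.0532), and these 2 genes had an unadjusted p under 0.05, as did 20.2% of all clusters. In RHOXF1 cells STIP1, CHORDC1, FKBP4 and HSP90AA1 lay wholly lower at 48 h, as did 14.7% of all clusters. In RHOXF2 cells limma called 0 of 8 genes, against 1.24% of all clusters, and 1, CHORDC1, had an unadjusted p under 0.05, as did 16.7%. CHORDC1, HSP90AA1 and HSP90AB1 lay wholly lower at 48 h in RHOXF2 cells, as did 8.11% of all clusters. CHORDC1 differed by -0.46 (SE 0.14, adjusted p = 0.102), STIP1 by -0.19 (SE 0.10, adjusted p = 0.372) and HSP90AA1 by -0.12 (SE 0.08, adjusted p = 0.499). Without RHOXF2 replicate 3 of 48 h these were -0.47, -0.31 and -0.08, with 0 of the 3 called.

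Whether an effect differed between the times was tested as an interaction, and no member passed. The RHOXF2 effect on STIP1 was 0.28 larger at 48 h than at 24 h (SE 0.15, interval -0.03 to 0.59, adjusted p = 0.579), or 0.16 without RHOXF2 replicate 3 of 48 h. Over all clusters limma called 0.0141% for RHOXF2 and 0% for RHOXF1, and 0 of 8 members had an unadjusted p under 0.05 in either, where 8.75% of all clusters did for RHOXF2 and 4.7% for RHOXF1.

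RHOXF2 was also set directly against RHOXF1. At 48 h STIP1 read 0.33 higher in RHOXF2 cells (SE 0.10, interval 0.11 to 0.55) and CHORDC1 0.32 higher (SE 0.14, 0.03 to 0.61), with no overlap of arrays for either, where 4.46% of all clusters lay wholly above. Both had an adjusted p of 0.998, 0 of 8 were called against 0.0519% of all clusters, and these 2 genes had an unadjusted p under 0.05, as did 3.52%. The STIP1 difference was 0.21 and that of CHORDC1 0.31 without RHOXF2 replicate 3. At 24 h limma called 0 of 8 against 0.0141% of all clusters, with 0 under an unadjusted p of 0.05 against 1.7%. All clusters called at 24 h were those of RHOXF1 and RHOXF2 themselves. STIP1 was then 0.16 higher in RHOXF2 cells (interval -0.06 to 0.38) with no overlap of arrays, where 2.36% of all clusters lay wholly above.

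Other parts of the HSP90 system were read from lists of related genes, each gene by its brightest cluster. Among 31 measured co-chaperones outside the members, of 36 listed, 21 read higher in RHOXF2 cells than in control cells at 48 h (median 0.05). Limma called 0 of them, and 7 had an unadjusted p under 0.05, where 12.2% of all clusters did. Those with the smallest p were RUVBL1, an ATPase of the R2TP complex that works with HSP90 (0.32, SE 0.09, adjusted p = 0.216), CDC37L1, a relative of CDC37 (-0.33, SE 0.11, adjusted p = 0.25), and NUDC, of the nuclear distribution family (0.32, SE 0.11, adjusted p = 0.268). In RHOXF1 cells at 48 h 23 of the 31 read higher than control (median 0.08), with 0 called. An unadjusted p under 0.05 was held by 5, beside 7.22% of all clusters. Set against RHOXF1 at 48 h, RHOXF2 read higher for 14 of the 31 (median -0.03). Between the control groups, 5 of the 31 were lower at 48 h: NUDC (-0.52, adjusted p = 0.00419), RUVBL1 (-0.43, adjusted p = 0.00419), RPAP3, the R2TP subunit that binds HSP90 (-0.36, adjusted p = 0.0140), TTC1 (-0.47, adjusted p = 0.0455) and the muscle myosin chaperone UNC45B (-0.39, adjusted p = 0.0444). UNC45B was dim, averaging 5.53 at 24 h and 5.14 at 48 h in control cells. None of the 31 was higher past the threshold. Over all clusters 7.89% fell and 17.8% moved either way in that comparison.

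The HSP90 paralogs and pseudogenes had 12 measured genes of 13 listed, 8 of which read higher in RHOXF2 cells at 48 h (median 0.09). Limma called 0, and 2 had an unadjusted p under 0.05, beside 12.2% of all clusters. At 24 h 5 of the 12 read higher in RHOXF2 cells (median -0.01), with 0 called and 5 under an unadjusted p of 0.05, beside 7.99% of all clusters. Of these 5, HSP90AA2P (0.32), HSP90AA4P (0.43), HSP90AA5P (0.16) and HSP90AA6P (0.47) read higher and HSP90B2P (-0.36) lower. In RHOXF1 cells at 24 h 9 of the 12 read higher than control (median 0.10). Limma called 0, and 3 had an unadjusted p under 0.05, beside 4.76% of all clusters. HSP90AA6P then averaged 8.90 in RHOXF1 and 8.76 in RHOXF2 cells, against 8.29 in control cells. HSP90B2P averaged 5.46 and 5.54, against 5.90. At 48 h the pseudogene HSP90AA2P averaged 10.54 in RHOXF2 cells and 10.34 in control cells (0.20, SE 0.09, adjusted p = 0.377). In that 48 h comparison HSP90AA4P differed by 0.26 (SE 0.12, adjusted p = 0.401) and HSP90AA5P by 0.16 (SE 0.08, adjusted p = 0.415). The pseudogene HSP90AA5P was dim, averaging 3.42 in RHOXF2 cells and 3.25 in control cells at 48 h. Clusters of such near-identical copies can pick up transcripts of the parent gene, so they are no separate measurement of HSP90AA1. Between the control groups 1 of the 12 fell, HSP90AB5P (-0.32, adjusted p = 0.0428), where 7.89% of all clusters fell. HSP90AB5P was dim, averaging 5.14 at 24 h and 4.82 at 48 h in control cells. In RHOXF1 cells HSP90AA6P fell between the times (-0.87, adjusted p = 0.0262), 1 of the 12 where 1.35% of all clusters fell. HSP90B1, the form of the endoplasmic reticulum, is given after its value was seen: it averaged 12.25 in RHOXF2 cells and 12.39 in control cells at 48 h (-0.14, SE 0.07, adjusted p = 0.462).

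Of 4 measured genes (7 listed) of the heat shock factor family and its binding partners, limma called 0 in any comparison. In RHOXF2 cells against control at 48 h 1 had an unadjusted p under 0.05, beside 12.2% of all clusters. HSF4, a factor known from the lens, read 7.12 in RHOXF2 cells and 7.40 in control cells at 48 h (-0.28, SE 0.10, adjusted p = 0.267). The factor HSF5 differed by 0.09 in that comparison, and HSF2BP, which binds HSF2, by 0.09. Among 25 measured genes that encode HSP90 clients, of 30 listed, 16 read higher in RHOXF2 cells at 48 h (median 0.02). Limma called 0, and 3 had an unadjusted p under 0.05, a share no larger than the 12.2% over all clusters: the chloride channel CFTR (0.23), the receptor kinase KIT (-0.26) and the kinase CHUK (0.35). CFTR was dim, averaging 3.84 in RHOXF2 cells and 3.61 in control cells at 48 h. Between the control groups KIT (0.52, adjusted p = 0.00308), EGFR (0.45, adjusted p = 0.0181) and the mineralocorticoid receptor NR3C2 (0.40, adjusted p = 0.0450) were higher at 48 h and CHUK was lower (-0.56, adjusted p = 0.0157), 4 of 25 called beside 17.8% of all clusters.

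Other heat shock genes, mostly cytosolic but with the mitochondrial chaperonins HSPD1 and HSPE1 and the endoplasmic reticulum chaperone SERPINH1 among them, were read on the same arrays. In RHOXF2 cells at 48 h their median was 0.50 over 17 measured genes of 19 listed, beside 0.12 over the 8 members, and 4 were called beside 0.0943% of all clusters: HSPA6 (1.98), DNAJB1 (1.57), HSPH1 (1.12) and BAG3 (0.57). HSPA6 averaged 8.42 ± 0.88 there against 6.43 ± 0.14 in control cells, and DNAJB1 10.38 ± 0.35 against 8.81 ± 0.20. HSPH1 averaged 10.48 ± 0.24 against 9.36 ± 0.16, and BAG3 9.28 ± 0.26 against 8.71 ± 0.04. These 4 calls were not followed over the alternatives, such as leaving out arrays. Between the control groups 6 of the 17 were lower at 48 h, HSPH1 (-1.22), DNAJA1 (-0.66), HSPA4 (-0.48), HSPE1 (-0.39), HSPA8 (-0.35) and HSPD1 (-0.34), where 7.89% of all clusters fell. The small heat shock protein gene HSPB1 was higher (0.61), where 17.8% of all clusters moved either way. Between the times in RHOXF1 cells, HSPH1 (-0.88) and HSPA4 (-0.45) fell and HSPB8 rose (0.67). Of all clusters 1.35% fell there and 4.42% moved either way. HSPB8 also rose in RHOXF2 cells (1.14), where 1.24% of all clusters moved either way. In RHOXF1 cells at 48 h 16 of the 17 read higher than control (median 0.19, highest 1.12 for DNAJB1). Limma called 0 there, and 4 had an unadjusted p under 0.05, beside 7.22% of all clusters. The difference between the lists was not tested.

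**Figure D4:**
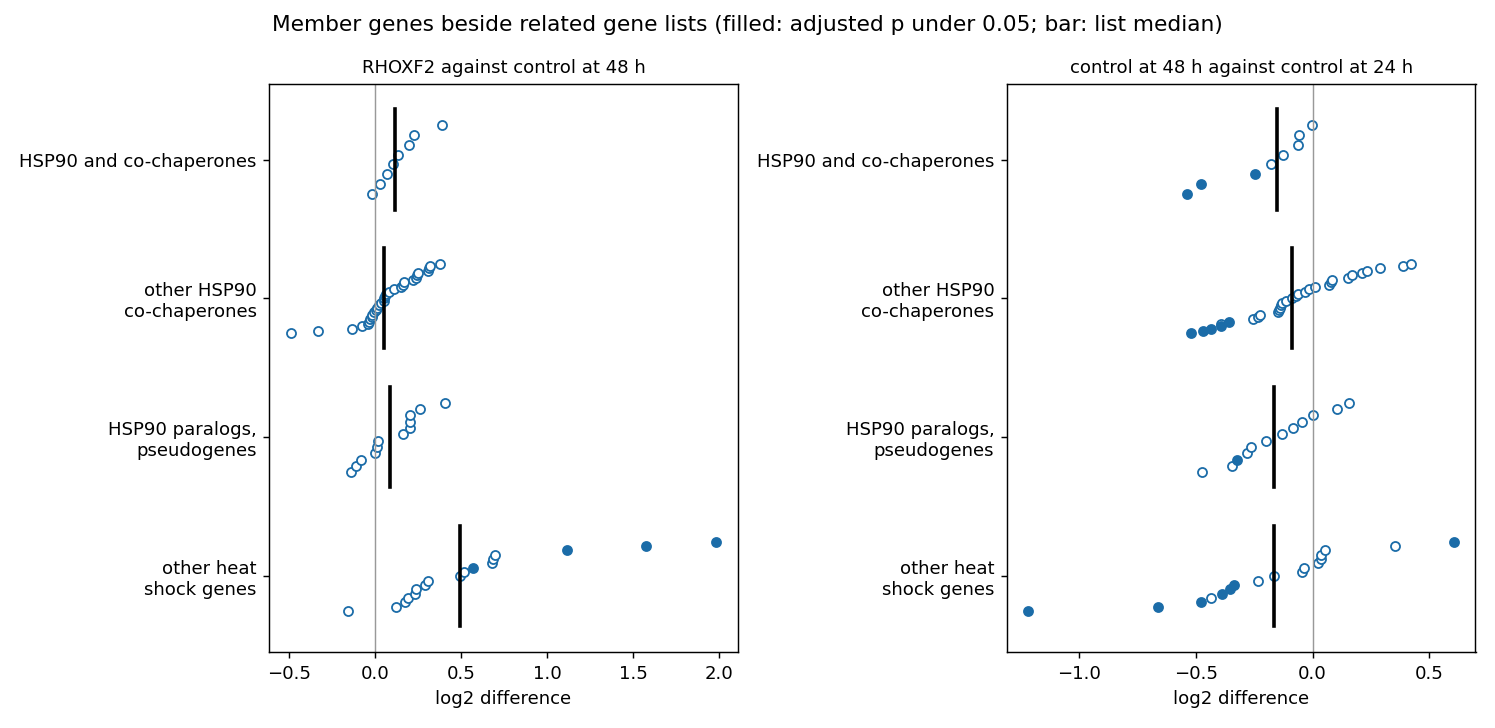
Log2 differences (x axis) of the 8 member genes and of 3 related gene lists, for RHOXF2 against control at 48 h on the left and for control at 48 h against 24 h on the right. Each point is a gene, filled where the adjusted p was under 0.05, and black bars are medians: in the left panel the members lie between -0.02 and 0.39, while 4 of the other heat shock genes are filled and lie above 0.5.

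The genes most like HSP90AA1 over the 18 arrays, after the mean of each time was subtracted, were UBXN1 (r = 0.88), the HSP40 genes DNAJA1 (0.86) and DNAJB1 (0.83), UBLCP1 (0.85) and NIFK (0.84). Within the 9 arrays of 24 h these correlations were 0.63 to 0.83, and within the 9 of 48 h 0.87 to 0.91. Arrays share groups and normalization, so these values only describe the profiles. Among the members themselves likeness was modest. Over 28 pairs of members the median correlation was 0.06, against -0.001 for pairs among evenly spaced tested clusters. The highest were FKBP4 with STIP1 (0.57), HSF1 with STIP1 (0.52) and HSP90AA1 with STIP1 (0.51). HSP90AA1 and HSP90AB1, the alpha and beta forms, had a correlation of -0.21.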

How the data were processed

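The deposited table holds log2 RMA expression values from Affymetrix Expression Console 3.1, per the labels: the authors put Human Gene 1.0 ST arrays through RMA, which corrects background, normalizes by quantiles and gives 1 value for a transcript cluster. The array version comes from the sample descriptions, and the genome build of the probe annotation is not given in the sources used here. Symbols came from the probe annotation supplied with the series. Tests used limma (version 3.58.1, under R version 4.3.3) on the 21214 clusters with a symbol, with 1 mean per group over all 18 arrays (12 residual degrees of freedom, 6.5 prior ones), two-sided, with Benjamini-Hochberg adjustment at 0.05 and no filter on dim clusters. Alternatives repeated the normalization (quantile, cyclic loess), the clusters tested, the groups fitted, the replicate block, array weights, and each array left out. SE is limma's moderated one, and SD is that of 3 arrays. The number of arrays limits the precision.

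The members, lists and tests were chosen with earlier results of these data known. All member clusters are named. From each list those called and up to 3 with the smallest p in RHOXF2 against control at 48 h are named. The 5 genes most like HSP90AA1 are named too. The comparisons of 48 h with 24 h in transfected cells were added after seeing the data.

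Replicate numbers are shared between groups. At 24 h each transfected group correlated with control by number in all 3 pairs. Residual r was 0.328 to 0.452 for RHOXF1 and 0.134 to 0.504 for RHOXF2. At 48 h they did not (-0.346 to 0.0345). Correlations between unlike numbers were not computed, so these values do not settle whether the numbers pair samples at either time. Between the transfected groups r was 0.0617 to 0.519 at 24 h and -0.087 to 0.244 at 48 h. The SEs, intervals and p-values given for 24 h come from the fit without pairing by number, unless a replicate block is named.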

Additional observations from a re-analysis of the deposited data

How the results depend on the processing

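No member was called against control under any alternative run. Counts over all clusters moved. With only the groups compared in the fit, RHOXF1 against control at 48 h gave 1 call (2 as reported), RHOXF2 against control at 48 h 4 (20), RHOXF2 against RHOXF1 at 48 h 6 (11), control over time 1595 (3772), RHOXF1 over time 1802 (937) and RHOXF2 over time 10 (264). With all clusters tested, unnamed ones included, RHOXF2 against RHOXF1 gave 5, RHOXF1 over time 447 and RHOXF2 over time 165. Clusters above the median level left 1 for RHOXF1 against control at 48 h. Array weights gave 2907 for RHOXF1 over time and 848 for RHOXF2 over time. The 3 calls on the time difference of the RHOXF2 effect became 0 under cyclic loess, above the median level, with all clusters and with only the groups compared. The replicate block within each time gave 5 for RHOXF1 against control at 48 h, where RHOXF1 and control samples of the same number had a residual r of -0.263 to -0.0427. It changed no call of a member against control. A replicate block across the times gave 438 for RHOXF2 over time, with CHORDC1 the 1 member called (adjusted p = 0.0471). The numbers are not shown to pair samples across times, so that call is not supported by the design. In RHOXF1 cells over time 2 members were called, STIP1 joining CHORDC1, above the median level, with only the groups compared, with the replicate block across times, with a robust trend and with array weights (adjusted p of STIP1 0.0105 to 0.0408). The cause of these shifts was not tested.

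Small member differences changed sign. Array weights turned CDC37 to 0.018 in RHOXF1 against control at 24 h and to -0.0094 in RHOXF2 against control at 48 h, HSP90AB1 to 0.0046 in the second of these, and HSF1 to 0.042 in control over time. HSP90AB1 in RHOXF1 against control at 24 h became -0.0096 with quantile normalization repeated and -0.025 under cyclic loess. None of these values was called.

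Leaving out 1 array at a time gave these ranges. For RHOXF1 against control at 24 h STIP1 ran from -0.092 to 0.0017, CHORDC1 from -0.063 to 0.21, CDC37 from -0.037 to 0.027 and HSP90AB1 from -0.034 to 0.081. For RHOXF2 against control at 24 h the count ran from 2 to 7 and CHORDC1 from -0.0031 to 0.24. For RHOXF1 against control at 48 h the count ran from 1 to 4, STIP1 from -0.023 to 0.15 and HSP90AB1 from -0.17 to 0.014. For RHOXF2 against control at 48 h the count ran from 15 to 125 (without control replicate 1), PTGES3 from -0.048 to 0.14, CDC37 from -0.030 to 0.081 and HSP90AB1 from -0.055 to 0.0645. RHOXF2 against RHOXF1 gave counts of 3 to 5 at 24 h and 4 to 12 at 48 h. For control over time 1 to 3 members and 2073 to 4077 clusters were called, FKBP4 ran from -0.11 to 0.011 and HSF1 from -0.054 to 0.0735. The time difference gave 0 to 1 calls for RHOXF1 and 0 to 3 for RHOXF2. Over time, RHOXF1 gave 0 to 1 members and 13 to 722 clusters, and RHOXF2 4 to 801 (without replicate 3 of 48 h). STIP1 stayed called in control over time each time. With 3 arrays in a group, their number limits the precision of all these values.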
